A study of Mus musculus with 6 samples.

Results

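The transcripts described here encode the proteins that copy DNA and supply its nucleotides, measured in dendritic cells taken from mouse tumours. A fixed list of 37 gene symbols was matched to the Ensembl identifiers of the count table, which held 26519 genes, and all 37 had a row. Pcna was not among them because a pseudogene copy shares its reads. RNA sequencing covered 6 libraries of tumour-infiltrating dendritic cells collected on day 10 after inoculation: 3 from wild-type (WT) and 3 from MAVS knockout (MAVS KO or KO) hosts. All hosts carried MC38 tumours, a mouse colon carcinoma line, and MAVS is a mitochondrial protein through which the RNA sensors RIG-I and MDA5 signal. The groups differ by host genotype, while the knockout allele, strain, age, sex and cell gate were not stated in the labels. Nor is it stated that replicates are different mice, so the p-values cover sample-to-sample spread only, which may be technical.

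Replication begins when the origin recognition complex, CDC6 and CDT1 load the ring-shaped MCM2-7 helicase onto DNA before S phase. CDC45 and the GINS complex then activate the helicase, primase and the DNA polymerases copy both strands, and ribonucleotide reductase and thymidylate synthase provide the deoxynucleotides. Most of these genes are transcribed around the G1 to S transition under the E2F factors, so their transcripts mark cycling cells, and in dendritic cell lineages they are known mainly from dividing precursors.

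Library totals were 14466640 to 20851733 counts, and the 37 genes took 13508 to 36651 of them per library. Mavs stood at 33.9, 39.7 and 39.7 CPM (read counts scaled to library size, with TMM factors, the trimmed mean of M values) in wild-type and 8.99, 12.8 and 9.45 CPM in KO libraries, lower in all 3 knockout libraries (log2 fold change -1.86, SE 0.18, edgeR adjusted p = 0.0017), though transcripts remained. Among markers of the labelled cell type, Itgax was present at 217 to 318 CPM and Cd74 at 14765 to 25026 CPM across the 6 libraries. Zbtb46 was at 15.3 to 27.5 CPM in WT and 6.96 to 10.8 CPM in KO libraries and Flt3 at 34.1 to 73.3 and 10.8 to 15.5 CPM, while 14 macrophage markers summed to 32590 to 45428 CPM. In such bulk samples, fewer cells of a type and less RNA per cell cannot be told apart.

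Replication genes were lower in the knockout libraries as a group, and 10 of the 37 fell past the threshold. All 6 subunits of the MCM2-7 helicase fell, together with the primase subunit Prim1, both listed subunits of ribonucleotide reductase (Rrm1 and Rrm2) and Uhrf1, which recruits the maintenance DNA methyltransferase to newly copied DNA. The 37 genes summed to 1724, 1957 and 1334 CPM in the 3 wild-type libraries, compared with 1005, 988 and 989 CPM under knockout, so the knockout mean was 59.5% of the wild-type mean. Every knockout sum lay below the lowest wild-type sum. None of the 37 rose, by edgeR's quasi-likelihood test, DESeq2 or limma-voom, and 0 were higher at an unadjusted p below 0.05.

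Among all 12580 tested genes 2.81% were called, 1.05% lower and 1.76% higher, beside which 10 of 37 stand. Calls are by edgeR's quasi-likelihood test, at a Benjamini-Hochberg adjusted p below 0.05 over all genes. The 37 were listed with earlier results of these data known. The median log2 fold change of the members was -0.75 against -0.0022 over all tested genes, and 36 of 37 were negative against 50.4% of all genes. For 29 members all 3 knockout values lay below all 3 wild-type values, a separation in this direction that 10.6% of all tested genes showed, and 29 had an unadjusted p below 0.05 with a negative value, against 7.51%. Also 29 had a 95% interval wholly below 0, against 7.49% of all tested genes, and 10 members had an edgeR adjusted p between 0.05 and 0.1. The count depended on the setting: DESeq2 called 21 members lower (2.8% of all its tested genes), scaling by library size alone gave 20 (2.71%), testing every gene unfiltered 18 (1.48%), requiring a mean of 5 CPM 15 of 34 (2.01%) and limma-voom 7 (0.811%).

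The calls needed all 3 knockout libraries. Without MAVS KO replicate 1, 2 or 3, edgeR called 0 members, with 25, 27 and 26 of them lower at an unadjusted p below 0.05 and with 0.0697%, 0.191% and 0.107% of all tested genes then called lower; the members' median stayed at -0.74, -0.70 and -0.77. Without WT replicate 1 or 2 the calls numbered 4 and 3 (all genes, 0.733% and 0.474%), and without WT replicate 3 they numbered 14 (0.747%). Mcm2, Mcm3 and Mcm5 were the members called in each of the 3 fits without a wild-type library.

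**Figure D1:**
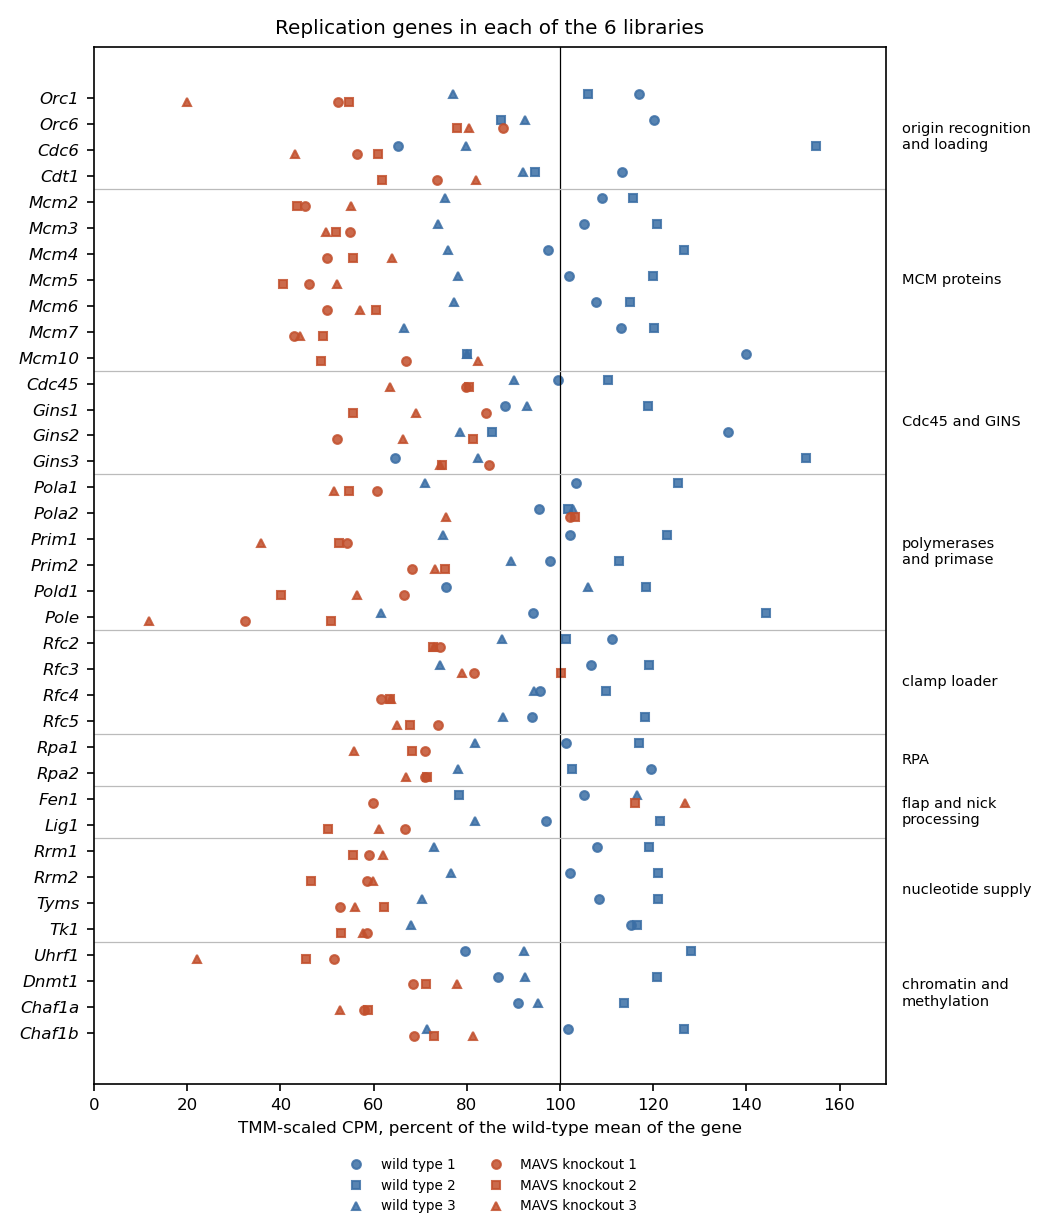
TMM-scaled CPM of each of the 37 genes in each library, as a percentage of the wild-type mean of that gene (x axis), with genes grouped by role (y axis); blue marks are wild-type and orange marks MAVS knockout libraries, and the mark's shape is the replicate number. Knockout marks lie left of all wild-type marks for 29 genes, and wild-type replicate 3 is the lowest wild-type mark for 26.

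The wild-type libraries differed among themselves. WT replicate 2 was the highest of the 6 libraries for 28 of the 37 genes, and WT replicate 3 the lowest wild-type library for 26. The median member stood at 102%, 118% and 79.8% of its wild-type mean in WT replicates 1, 2 and 3, and at 60.8%, 60.5% and 62.0% in MAVS KO replicates 1, 2 and 3. The knockout libraries were thus close to each other, and no single one of them was the low library: they were the lowest in their group for 10, 12 and 15 members. The coefficient of variation had a median of 21.6% over the members in wild-type and 12.5% in knockout libraries and was larger in wild-type for 28 of 37 members, against 59.8% of the 8988 tested genes with a mean of at least 5 CPM.

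Of the 4 genes that recognise and license origins, none passed the threshold by any of the 3 tools, and 3 had an unadjusted p below 0.05. Orc1, an ATP-binding subunit of the origin recognition complex, had 3.01, 2.72 and 1.98 CPM in WT and 1.35, 1.41 and 0.513 CPM in KO libraries (log2 fold change -1.22, SE 0.51, edgeR adjusted p = 0.268). Cdc6, the helicase loader, had 6.75, 16.0 and 8.25 CPM against 5.84, 6.30 and 4.47 CPM, with WT replicate 2 standing well above the rest (-0.90, SE 0.34, edgeR adjusted p = 0.217). Cdt1, its partner in loading, was at 23.3, 19.4 and 18.9 CPM against 15.1, 12.7 and 16.8 CPM (-0.46, SE 0.18, edgeR adjusted p = 0.234). For these 3 genes the groups did not overlap, whereas those of Orc6 did, at 15.6 to 21.5 and 13.9 to 15.7 CPM (-0.29, 95% interval -0.70 to 0.12).

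The MCM2-7 subunits, which form the hexameric ring that unwinds DNA, all fell, and for each of them every knockout value was below every wild-type value. Mcm5 had 85.3, 100.2 and 65.3 CPM in WT and 38.6, 34.0 and 43.7 CPM in KO libraries, log2 fold change -1.11 (SE 0.17, edgeR adjusted p = 0.0164). Mcm2 had 71.2, 75.5 and 49.2 CPM against 29.5, 28.5 and 36.0 CPM (-1.06, SE 0.18, edgeR adjusted p = 0.0175). Mcm7 had 86.0, 91.3 and 50.6 CPM against 32.6, 37.3 and 33.6 CPM (-1.14, SE 0.20, edgeR adjusted p = 0.0221). In all 3 genes WT replicate 3 lay between the knockout libraries and the other wild-type libraries.

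Mcm3 went from 133.6, 153.5 and 93.9 CPM to 69.8, 65.9 and 63.3 CPM (-0.94, SE 0.17, edgeR adjusted p = 0.0221). Mcm6, the most abundant member, went from 178.3, 190.1 and 127.7 CPM to 82.8, 99.99 and 94.6 CPM (-0.84, SE 0.15, edgeR adjusted p = 0.0252). Mcm4 went from 92.4, 119.9 and 72.0 CPM to 47.3, 52.7 and 60.6 CPM (-0.82, SE 0.18, edgeR adjusted p = 0.0402). The 6 subunits summed to 612 ± 139 CPM in WT and 317 ± 15.5 CPM in KO libraries (SD, n = 3 each), and their log2 fold changes lay within -1.14 to -0.82, a range narrower than any of their 95% intervals. Mcm4 did not pass with limma-voom. Mcm10, which is not part of the ring but helps to activate it, overlapped between groups at 7.05 to 12.3 and 4.29 to 7.25 CPM (-0.60, 95% interval -1.28 to 0.08).

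**Figure D2:**
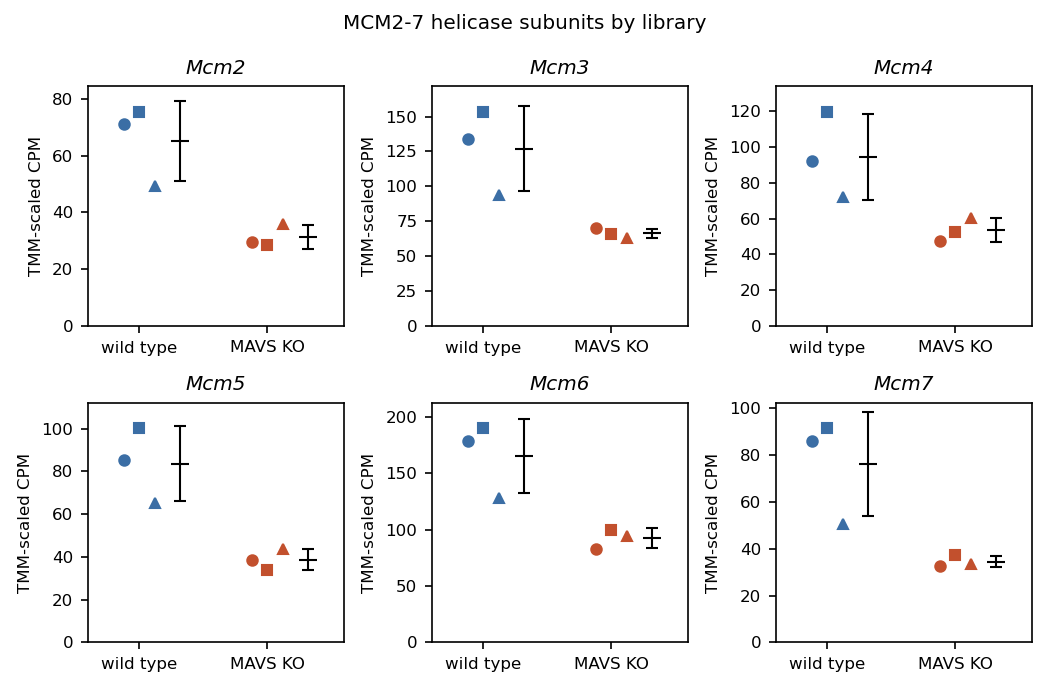
TMM-scaled CPM (y axis, from 0) of the 6 helicase subunits in wild-type (blue) and MAVS knockout (orange) libraries, with 1 mark per library (circle, square and triangle for replicates 1, 2 and 3) and the mean and SD of each group in black (n = 3). For each subunit WT replicate 3, the lowest wild-type library, is still above all 3 knockout libraries.

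Per kilobase of the principal transcript, the subunits of this ring, whose proteins assemble in equal numbers, differed in transcript level. In wild-type libraries Mcm6 had 56.8 ± 11.4 and Mcm3 41.9 ± 10.01 CPM per kilobase, Mcm4 26.4 ± 6.70, Mcm7 25.7 ± 7.47, Mcm5 24.7 ± 5.18 and Mcm2 19.4 ± 4.18 (SD, n = 3 each). Neighbours in this order lay within 1 SD of each other apart from Mcm6 above Mcm3, Mcm3 above Mcm4 and Mcm5 above Mcm2. The order of the 6 was the same in knockout libraries, from 31.8 ± 3.01 for Mcm6 to 9.30 ± 1.21 for Mcm2. Divided by all annotated exonic bases instead, Mcm5 came above Mcm7 in wild-type libraries. Over all 37 genes Mcm6, Rrm2 and Mcm3 had the highest levels per kilobase in both groups with either length, and Fen1 and Orc1 the lowest with the principal transcript. The place of Rrm1 depended on the length, rank 4 with its principal transcript and 10 with all exonic bases in wild-type libraries.

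Upstream sequences of members that fell are given for Mcm2 (chr6:88898781-88898980, minus strand), Mcm3 (chr1:20820313-20820512, minus strand), Mcm5 (chr8:75109309-75109508, plus strand), Mcm6 (chr1:128359706-128359905, minus strand) and Rrm1 (chr7:102441495-102441694, plus strand), because these genes moved together and their stretch overlaps no annotated exon. Pola2 (chr19:5964207-5964406, minus strand), the member with the smallest change among those counted well, is shown beside them. The 6 were chosen after their values were seen. Mcm7 and Uhrf1, which also fell, each have 1 start site whose stretch overlaps no exon and 1 whose stretch does, and are not shown. Each stretch holds the 200 bases before the RefSeq start site on GRCm38.p6, 5′ to 3′. Capitals mark the E2F-type letters TTTCCCGC, TTTCGCGC, TTTGCCGC or TTTGGCGC and the CCAAT box, on either strand, so that a CCAAT box on the other strand reads ATTGG.
Mcm2: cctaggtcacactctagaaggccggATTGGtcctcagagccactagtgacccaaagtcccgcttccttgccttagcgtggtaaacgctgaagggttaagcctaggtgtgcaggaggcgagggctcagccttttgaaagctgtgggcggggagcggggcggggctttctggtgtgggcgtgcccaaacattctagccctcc
Mcm3: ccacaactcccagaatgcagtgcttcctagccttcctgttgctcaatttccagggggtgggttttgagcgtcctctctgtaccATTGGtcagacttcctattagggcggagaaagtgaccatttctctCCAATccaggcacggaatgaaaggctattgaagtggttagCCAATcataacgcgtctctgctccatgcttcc
Mcm5: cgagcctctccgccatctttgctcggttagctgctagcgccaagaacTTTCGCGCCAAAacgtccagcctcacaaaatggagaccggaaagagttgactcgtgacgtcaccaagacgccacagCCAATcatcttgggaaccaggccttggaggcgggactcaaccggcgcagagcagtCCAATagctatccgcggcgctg
Mcm6: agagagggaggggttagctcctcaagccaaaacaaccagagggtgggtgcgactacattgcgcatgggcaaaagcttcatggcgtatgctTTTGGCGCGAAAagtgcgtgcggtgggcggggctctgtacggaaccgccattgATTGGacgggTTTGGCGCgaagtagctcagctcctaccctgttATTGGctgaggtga
Rrm1: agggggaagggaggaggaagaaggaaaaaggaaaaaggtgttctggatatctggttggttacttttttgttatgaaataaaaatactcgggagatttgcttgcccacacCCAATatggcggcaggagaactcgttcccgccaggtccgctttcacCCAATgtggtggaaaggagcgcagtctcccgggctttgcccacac
Pola2: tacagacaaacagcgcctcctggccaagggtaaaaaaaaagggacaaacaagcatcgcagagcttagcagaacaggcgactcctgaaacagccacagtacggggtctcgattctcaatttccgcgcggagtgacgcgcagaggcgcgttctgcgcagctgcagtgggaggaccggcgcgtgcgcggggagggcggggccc

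In these stretches Mcm6 had 3 E2F-type matches, the first pair overlapping at positions -110 to -99 and the other at -47 to -40 before the start site, and Mcm5 had 2 overlapping matches at -153 to -142. Mcm3 had none before the start but 2 within the 50 bases after it, at 20 to 27 and 39 to 46. The stretches of Mcm2, Rrm1 and Pola2 held no E2F-type match. Over windows from 250 bases before to 50 after each start, which RefSeq's table gave for 31 of the 37 members, 14 members (45.2%) held at least 1 of the 4 E2F-type spellings, against 704 of 27025 genes (2.6%). They included 5 of the 9 members that fell and 9 of the 22 others. A CCAAT box was found for 20 of the 31 members (64.5%), for all 9 that fell and for 11 of the other 22, against 41.1% of all genes. TTTGAA, the core letters of the CHR element of mitotic promoters, was found for 5 of 31 (16.1%) against 20.2% of all genes. A match is a description of letters and not a measured binding site.

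Cdc45 and the GINS complex turn the loaded ring into the active helicase. None of the 4 genes passed by any of the 3 tools, and 2 had an unadjusted p below 0.05. Cdc45 had 16.2, 17.9 and 14.6 CPM in WT and 12.97, 13.1 and 10.3 CPM in KO libraries, without overlap (log2 fold change -0.42, SE 0.19, edgeR adjusted p = 0.306). Gins1 also did not overlap, at 5.42 to 7.31 and 3.42 to 5.17 CPM (-0.52, SE 0.29). The groups of Gins2 (-0.59, SE 0.26) and Gins3 (-0.35, SE 0.36) overlapped, and without WT replicate 2 the value of Gins3 was 0.076. All 4 genes averaged 14.2 CPM or less over the 6 libraries, and the 95% intervals of Gins1, Gins2 and Gins3 had lower bounds of -1.15, -1.16 and -1.16.

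Among polymerase and primase genes Prim1 fell, 2 had an adjusted p between 0.05 and 0.1, and Pola2 had the value nearest 0. Prim1, the catalytic primase subunit that makes the RNA primers, had 25.1, 30.2 and 18.4 CPM against 13.4, 12.9 and 8.79 CPM (-1.07, SE 0.23, edgeR adjusted p = 0.04), and did not pass with limma-voom. Its partner Prim2 had 16.8, 19.4 and 15.4 CPM against 11.7, 12.9 and 12.6 CPM (-0.47, SE 0.18, edgeR adjusted p = 0.221), again without overlap. Pola1, the catalytic subunit of polymerase alpha, had 18.0, 21.8 and 12.3 CPM against 10.6, 9.52 and 8.94 CPM (-0.84, SE 0.23, edgeR adjusted p = 0.0924). Its accessory subunit Pola2 had 31.8, 33.9 and 34.2 CPM against 34.0, 34.4 and 25.2 CPM, with 2 knockout libraries at the wild-type level (-0.09, 95% interval -0.44 to 0.25). The 4 genes encode a single complex, and the differences between their fold changes were not tested.

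Pold1, the catalytic subunit of the lagging-strand polymerase delta, had 31.9, 50.03 and 44.8 CPM in WT and 28.1, 17.0 and 23.9 CPM in KO libraries (-0.88, SE 0.22, edgeR adjusted p = 0.0655). Pole, the catalytic subunit of the leading-strand polymerase epsilon, had the most negative estimate of the members and a wide interval, from 8.82, 13.5 and 5.76 CPM to 3.03, 4.76 and 1.10 CPM (-1.65, 95% interval -2.69 to -0.61, edgeR adjusted p = 0.106). Both were separated between groups, and DESeq2 called both.

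**Figure D3:**
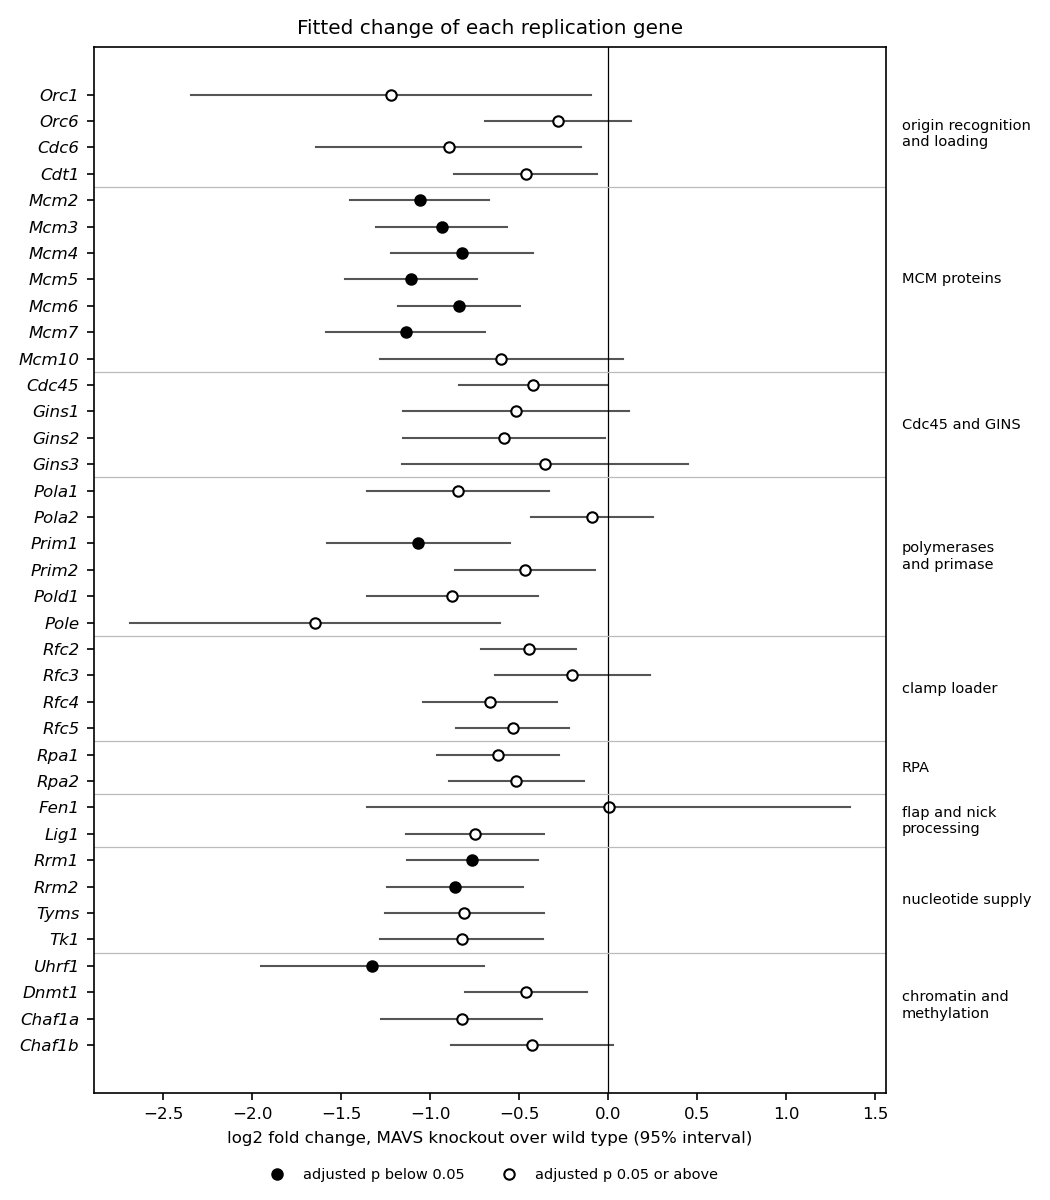
Fitted log2 fold change of each of the 37 genes, MAVS knockout over wild type (x axis), with its 95% interval, genes grouped by role (y axis); filled points have an edgeR adjusted p below 0.05. Filled points are the 6 helicase subunits, Prim1, Rrm1, Rrm2 and Uhrf1, and the intervals of Fen1, Orc1 and Pole are the widest.

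The clamp loader, replication factor C, places the PCNA ring on DNA, and replication protein A (RPA) covers single strands. Rfc2 had 99.0, 90.1 and 77.9 CPM in WT and 66.1, 64.7 and 64.9 CPM in KO libraries (-0.45, SE 0.12, edgeR adjusted p = 0.0864), the narrowest error of all members. Rfc4 (-0.67, SE 0.17, edgeR adjusted p = 0.0706) and Rfc5 (-0.54, SE 0.14, edgeR adjusted p = 0.0823) were also separated between groups, at 17.5 to 20.3 against 11.4 to 11.8 CPM and 51.9 to 69.9 against 38.4 to 43.6 CPM. Rfc3 overlapped, at 20.6 to 33.0 and 21.9 to 27.8 CPM (-0.20, 95% interval -0.64 to 0.23).

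Rpa1, the large subunit of RPA, had 96.8, 111.7 and 78.0 CPM against 67.9, 65.3 and 53.2 CPM (-0.62, SE 0.15, edgeR adjusted p = 0.0652), and Rpa2 had 42.9, 36.8 and 28.1 CPM against 25.5, 25.7 and 24.1 CPM (-0.52, SE 0.17, edgeR adjusted p = 0.162). Both were lower in all 3 knockout libraries than in any wild-type library. For Rfc2, Rfc5, Rpa1 and Rpa2 the lower bounds of the 95% intervals, from -0.96 to -0.71, lay above -1, so a log2 fold change of -1 was outside their intervals.

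Fen1 and Lig1 encode the flap endonuclease and the ligase that finish Okazaki fragments. Lig1 had 45.2, 56.6 and 38.1 CPM in WT and 31.2, 23.4 and 28.6 CPM in KO libraries, all of them below the wild-type values (-0.75, SE 0.18, edgeR adjusted p = 0.0527). Fen1 was listed at 8 to 19 counts per library and gave no usable estimate (0.00, 95% interval -1.36 to 1.36). Of its 2422 exonic bases 2039 (84.2%) lie in exons of the overlapping models Gm10143 and Tmem258, where reads cannot be assigned to 1 gene without strand. The same overlap covered 67.3% of the exonic bases of Gins2 (with Gse1) and 52.5% of those of Chaf1a (with Ubxn6), and at most 15.1% for the other members, so the levels of Fen1, Gins2 and Chaf1a are uncertain.

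The 4 genes of nucleotide supply moved by similar amounts, 2 of them past the threshold. Rrm1, the large subunit of ribonucleotide reductase, had 146.1, 161.1 and 98.7 CPM in WT and 79.9, 75.3 and 83.9 CPM in KO libraries (-0.76, SE 0.17, edgeR adjusted p = 0.0402). Rrm2, the subunit made in S phase, had 96.8, 114.8 and 72.7 CPM against 55.5, 44.3 and 56.8 CPM (-0.86, SE 0.17, edgeR adjusted p = 0.0327). Rrm1 did not pass with limma-voom.

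Tyms, thymidylate synthase, had 38.9, 43.5 and 25.3 CPM against 19.0, 22.3 and 20.1 CPM (-0.81, SE 0.20, edgeR adjusted p = 0.0661). Tk1, the thymidine kinase of the salvage route, had 40.5, 41.0 and 24.0 CPM against 20.6, 18.6 and 20.3 CPM (-0.82, SE 0.21, edgeR adjusted p = 0.0676). In all 4 genes WT replicate 3 was the lowest wild-type library and still stood above the knockout libraries, and their knockout means were 55.1% to 58.9% of the wild-type means.

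Of the genes that rebuild chromatin and methylation behind the fork, Uhrf1 fell and 3 did not pass. Uhrf1 had 36.1, 58.0 and 41.8 CPM in WT and 23.4, 20.6 and 10.03 CPM in KO libraries, where replicate 3 was the lowest (-1.33, SE 0.28, edgeR adjusted p = 0.0382). Uhrf1 was called in 0 of the 6 fits that left out 1 library, and in all 9 other alternatives. Its processed pseudogene Gm5648, which matches it at 98.3% over 1590 bases, had at most 2 counts in any library. Mcm7 has a like copy, Gm5487, at 97.7% over 2157 bases, which has no row in the deposited counts. How reads were divided between Mcm7 and this copy could therefore not be checked. Dnmt1, the maintenance methyltransferase that UHRF1 recruits, had 41.8, 58.4 and 44.7 CPM against 33.1, 34.5 and 37.6 CPM, also without overlap (-0.46, SE 0.15, edgeR adjusted p = 0.164).

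Chaf1a and Chaf1b encode subunits of the chromatin assembly factor that deposits histones on new DNA. Chaf1a had 11.7, 14.7 and 12.3 CPM against 7.47, 7.58 and 6.81 CPM (-0.82, SE 0.20, edgeR adjusted p = 0.0651), and Chaf1b overlapped at 21.8 to 38.5 and 20.9 to 24.8 CPM (-0.43, 95% interval -0.88 to 0.02). Across all roles, calls went to the more abundant members: 7 of the 9 with a mean of at least 50 CPM fell, and 3 of the 28 below that level, where 1.38% and 0.937% of all tested genes at those levels were called lower. The standard errors of called members had a median of 0.17 and those of the others 0.20.

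Other genes of the pathway, from lists separate from the 37, had a smaller median change. Like the 37, these lists were chosen with earlier results of these data known. Of 86 tested genes of origin licensing, origin firing, polymerases, nucleotide supply, purine and pyrimidine synthesis and chromatin assembly, 6 fell and none rose by edgeR, where 3 were higher at an unadjusted p below 0.05, and DESeq2 called 16 lower and 2 higher and limma-voom 4 lower. With 1 library left out edgeR called 0 to 8 of them lower. Their median log2 fold change was -0.28. The difference in median from the 37 members was not tested.

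The 6 that fell came from several of these lists. Ccne2, the cyclin E that activates CDK2 at S phase entry, went from 11.7 to 4.28 CPM (-1.45, SE 0.30), Chtf18, of an alternative clamp loader, from 14.1 to 5.46 CPM (-1.37, SE 0.21), and Wdhd1, which couples the helicase to polymerase alpha, from 23.1 to 11.2 CPM (-1.04, SE 0.22), 3 of 21 firing and fork genes. Asf1b, a histone chaperone, went from 75.9 to 41.0 CPM (-0.89, SE 0.15), 1 of 12 chromatin assembly genes. Dna2, a nuclease of Okazaki flaps, went from 47.1 to 28.8 CPM (-0.71, SE 0.14), 1 of 12 in its list, and Impdh2, of guanine nucleotide synthesis, from 83.4 to 56.0 CPM (-0.58, SE 0.11), 1 of 18.

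None of 14 tested genes of deoxynucleotide and folate metabolism passed by edgeR or limma-voom, with 4 at an unadjusted p below 0.05, while DESeq2 called 2 lower and 1 higher. Dut, which clears dUTP, averaged 26.2 CPM in WT and 15.6 CPM in KO libraries (-0.75, SE 0.21, edgeR adjusted p = 0.104), and lies 5.98 Mb from Mavs on chromosome 2. Samhd1, which degrades deoxynucleotides, averaged 588 and 856 CPM (0.54, SE 0.14, edgeR adjusted p = 0.0673), and lies 25.8 Mb from Mavs. None of 9 further licensing genes passed by edgeR or limma-voom, with 2 at an unadjusted p below 0.05, and DESeq2 called 1 higher. They included Mcm8, at 1.57 Mb from Mavs (-1.08, SE 0.43, edgeR adjusted p = 0.252), and Gmnn, the inhibitor of CDT1 (-0.38, SE 0.21). Mcmbp, with the smallest p-value of these 9, went the other way. It averaged 11.4 CPM in WT and 18.2 CPM in KO libraries, without overlap (0.67, SE 0.19, edgeR adjusted p = 0.0979). Of the 9 licensing genes 6 were negative and 3 positive. Of the 37 members Gins1 and Mcm10 are on chromosome 2, at 19.7 and 126.2 Mb from Mavs.

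The regulators above these genes did not pass. Of 18 genes of the E2F and RB families and their cyclin D kinases, 0 passed by edgeR or limma-voom, 6 had an unadjusted p below 0.05 and DESeq2 called 1 lower, with a median log2 fold change of -0.11. Of these 18, 11 were negative and 7 positive, and of the 6, 5 were lower and 1 higher. Ccnd3 and Cdk6 had the smallest p-values. Ccnd3 averaged 173 CPM in WT and 135 CPM in KO libraries (-0.35, SE 0.10). Cdk6 went the other way, from 41.8 to 56.7 CPM without overlap (0.44, SE 0.13). E2f7 (-1.02, SE 0.34) and E2f3 (-1.08, SE 0.39) had 7.24 and 5.36 CPM in WT and 3.55 and 2.54 CPM in KO libraries. Of 5 tested inhibitors of cyclin-dependent kinases 0 passed by edgeR or limma-voom, 1 had an unadjusted p below 0.05, and DESeq2 called 1 higher. Cdkn1a, which encodes p21, averaged 743 and 923 CPM (0.31, SE 0.09, edgeR adjusted p = 0.102).

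Genes of mitosis, the later phase of the same cycle, had a pattern across libraries like that of the replication genes. The 30 genes summed to 917, 1045 and 678 CPM in WT and 523, 597 and 568 CPM in KO libraries, so that WT replicate 2 was again the highest and WT replicate 3 the lowest wild-type library. Of these 30, 5 fell and none rose, by edgeR and limma-voom alike, and DESeq2 called 13 lower; all 19 with an unadjusted p below 0.05 were lower. Bub1b, with the smallest p-value of the list, went from 39.9 to 14.4 CPM (-1.48, SE 0.20). It lies 12.6 Mb from Mavs on chromosome 2, as do other genes of this list, Bub1 nearest at 3.40 Mb. Top2a, the topoisomerase that untangles copied DNA, went from 71.5 to 36.7 CPM (-0.96, SE 0.20), and the motor Kif11 from 29.8 to 13.5 CPM (-1.14, SE 0.21). The median log2 fold change of the list was -0.66. Leaving out 1 library at a time gave 0 to 11 calls.

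Single markers of several cell types also moved between the groups. Of 13 tested markers of type 1 conventional dendritic cells (cDC1) 5 fell and 12 were negative, with a median log2 fold change of -0.66. Within the wild-type group the cDC1 list ran opposite to the replication genes: its 13 markers summed to 1695, 1352 and 2158 CPM in WT replicates 1, 2 and 3, so the library with the lowest replication sum had the highest cDC1 sum. The knockout sums of 1369, 1471 and 1551 CPM overlapped with these. The 5 that fell averaged 8.69 to 58.2 CPM each in WT, against a mean sum of 1735 CPM. The sums thus mostly follow markers that were not called. Xcr1, the receptor that defines cDC1, was at 35.6, 21.9 and 47.7 CPM in WT and at 7.25, 6.37 and 9.74 CPM in KO libraries.

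Of 9 markers shared by dendritic cells 2 fell, Flt3 and Zbtb46, while 5 of the 9 were positive, the median was 0.03 and the sums overlapped between groups. Among those not called, Itgax and H2-Eb1, an MHC class II chain, had every knockout value above every wild-type value. Dpp4, also not called, had every knockout value below every wild-type value. It was at 42.9 to 62.1 CPM in WT and 16.8 to 35.01 CPM in KO libraries (edgeR adjusted p = 0.0597). With 1 library left out the calls numbered 1 to 3 in the cDC1 list and 0 to 2 in this one. Of 2 tested B cell markers Ighm fell, and the 7 B cell markers in the table summed to 31.4 to 52.3 CPM in WT and 10.7 to 12.02 CPM in KO libraries, with the highest value in WT replicate 3.

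Several sums were higher in the knockout libraries, some of them through 1 gene. The 8 monocyte markers summed to 1860 to 3194 CPM in WT and 4449 to 13703 CPM in KO libraries, but Chil3 alone averaged 1345 and 7386 CPM and was the 1 called, while 4 of the 8 were negative and the median was -0.08. The 9 cDC2 markers summed to 2376 to 2634 and 2739 to 4411 CPM, of which Mgl2 averaged 1593 and 2519 CPM without passing, and 5 of the 9 were negative with a median of -0.09. In that list Sirpa rose (0.56, SE 0.10) and Cd209a fell (-1.86, SE 0.23). The 6 endothelial markers summed to 41.2 to 87.8 and 106 to 209 CPM, of which Flt1, the 1 called, averaged 26.7 and 98.9 CPM.

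The 14 macrophage markers summed to 32590 to 36359 CPM in WT and 39027 to 45428 CPM in KO libraries. Arg1, the 1 called, averaged 5621 and 11346 CPM, and 11 of the 14 were positive with a median of 0.34. The 10 markers of mature dendritic cells summed to 728 to 884 and 952 to 1311 CPM, and all 9 tested were positive, 3 of them called higher. Summed levels overlapped between groups for the T cell list (12 markers, 16.6 to 29.96 CPM over the 6 libraries). They also did for the natural killer, tumour epithelial, fibroblast, neutrophil and plasmacytoid lists, as for the cDC1 and shared dendritic cell lists. Within the neutrophil list Mmp8, the 1 called of 6 tested, averaged 28.6 CPM in WT and 61.0 CPM in KO libraries (1.10, SE 0.13, edgeR adjusted p = 0.0069). The part of these cell types in the lower replication transcripts was not tested.

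**Figure D4:**
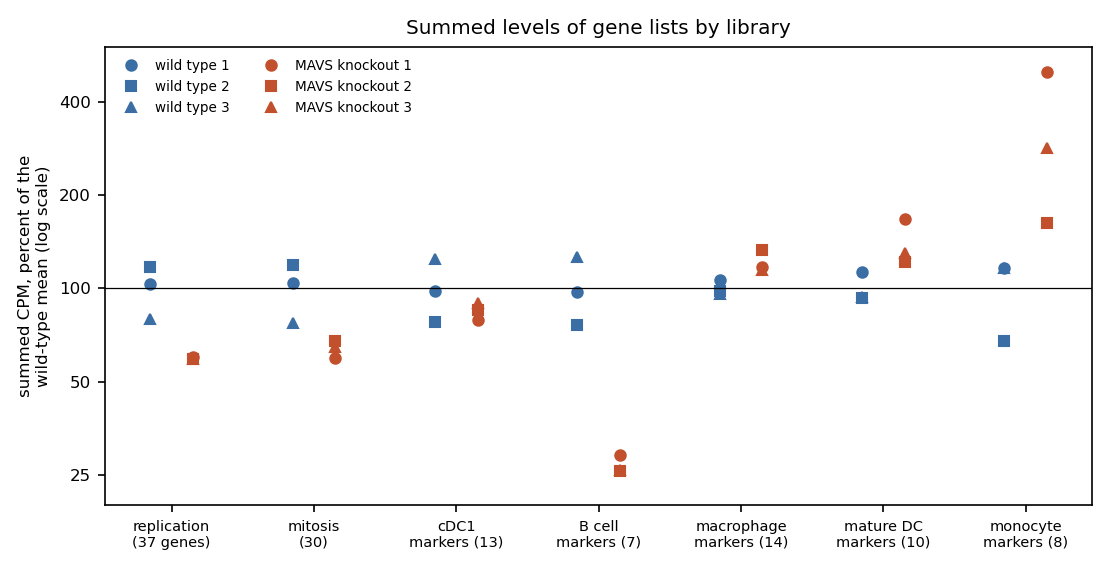
Summed TMM-scaled CPM of each gene list in each library, as a percentage of the wild-type mean of the list (y axis, log scale), with wild-type libraries in blue and MAVS knockout libraries in orange and the mark's shape giving the replicate number. The 3 knockout sums of the replication genes nearly coincide at 59.5% of the wild-type mean on average, and WT replicate 3 is the lowest wild-type mark for replication and mitosis genes but the highest for cDC1 and B cell markers.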

How the data were processed

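The files hold whole-number read counts for each Ensembl gene, deposited by the authors without normalization. The submitters' processing notes list mm10, HISAT2 (also as HISAT), HTSeq and DESeq2, and no role, version, annotation or strand setting was found. Symbols, positions and exons came from GENCODE M21 on GRCm38, which matched 26383 of 26519 identifiers.

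The 3 WT and 3 MAVS KO libraries were compared with edgeR 4.0.16 (R 4.3.3). Low genes were removed by filterByExpr with a minimum count of 10 and a minimum total of 15, libraries were scaled by TMM, and a quasi-likelihood F test had no covariates. P-values were Benjamini-Hochberg adjusted over 12580 genes, threshold 0.05, and all 37 members were tested. DESeq2 1.42.0 and limma 3.58.1 (voom) were alternatives, as were other scalings, filters and leaving out each library. The procedure was tested on simulated counts. Copies were sought with blastn (at least 97% identity over 200 bases).

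Members and lists were chosen with earlier results of these data known. Mavs and all members are named. The list genes named are some, not all, of those that passed or had the 4 smallest p-values in their list. Itgax, Cd74 and those named for their distance from Mavs were picked after their values were seen. No pair of libraries within a group was a duplicate (chi-square over degrees of freedom 11.7 to 24.2). Pairs across the groups were not checked.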

Additional observations from a re-analysis of the deposited data

How the results depend on the processing

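The members called lower numbered 10 in the reported fit and with DESeq2 size factors or robust dispersion, 20 with library size alone, 18 without a filter on low counts, 15 when a mean of 5 CPM was required, 21 with the DESeq2 Wald test, 7 with limma-voom and 11 (1.23% of all tested genes called lower) after thinning to the smallest total, an alternative added after seeing the data. The genes called over the transcriptome numbered 354, and 924 without a filter and 772 with DESeq2; the called genes of the related pathway lists numbered 11, against 26 with library size alone, 32 without a filter, 17 when a mean of 5 CPM was required and 30 with DESeq2. Leaving out each library gave 0 to 14 members, 36 to 277 genes and 0 to 19 list genes. With library size alone the median of all tested genes moved to -0.17 and the split of all calls to 102 higher and 341 lower, from 222 and 132, so directions here are relative to the TMM scale. The members' median stayed between -0.92 and -0.62 in every alternative run.

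A replicate block gave 12 members (1.19% of all tested genes called lower) and 414 genes. The labels do not say whether same-numbered samples are pairs. Same-numbered samples had correlations of deviations of 0.03, 0.11 and -0.03, and MAVS KO replicate 1 correlated more with WT replicate 3 (0.13). With 3 libraries per group these correlations cannot settle whether the samples are paired.

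Values that changed sign were those of Fen1 (-0.0042 with DESeq2 size factors, -0.16 with library size alone, -0.0022 with DESeq2, -0.077 with limma-voom, -0.030 with the block, -0.12 after thinning, and -0.19 to 0.28 without a library), Gins3 (-0.59 to 0.076 without a library, positive without WT replicate 2) and Pola2 (-0.17 to 0.041 without a library, positive without MAVS KO replicate 3). None of these passed. The cause was not tested. At 8 to 19 counts per library, Fen1 had a 95% interval of -1.36 to 1.36.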
